A study of Homo sapiens with 6 samples.

Results

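The 36 genes described here carry glucose into the cell, run it through glycolysis, and hand the resulting pyruvate either to lactate or to the mitochondrion. They were listed by name and function, with earlier results of these data known. The list holds 4 hexose transporters, 9 enzymes of upper glycolysis, 4 regulators of fructose bisphosphate, 6 enzymes of lower glycolysis, 4 genes of the lactate step, 4 pyruvate dehydrogenase kinases and 5 genes of pyruvate entry into mitochondria. All 36 were found among the 20263 genes of the count table, and 35 passed the expression filter and were tested. LDHB had a count of 0 in all 6 libraries; by counting error alone this allows up to 3 counts per library, and whether it reflects the cells or the counting was not tested.

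The cells were AsPC-1, an established line of human pancreatic adenocarcinoma kept in RPMI1640 with serum. They received, with the reagent jetPRIME, a negative control siRNA (the siControl group) or 1 of 2 siRNAs against HMOX1 (the HMOX1si1 and HMOX1si2 groups), and the RNA was sequenced from 2 libraries per group. The product of HMOX1, heme oxygenase-1, breaks down heme and releases its iron. Both siRNA groups share the same 2 control libraries, the time between transfection and harvest is not given in the sources used here, and the labels do not tell whether replicates came from separate cultures, so a p-value reflects the spread between these libraries alone, which may be technical.

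Glucose enters most cells through transporters of the GLUT family, which the SLC2A genes encode, and is trapped by hexokinase. Phosphofructokinase commits it to glycolysis under the control of fructose 2,6-bisphosphate, a signal metabolite that the PFKFB enzymes make and remove. Pyruvate at the end of the pathway is reduced to lactate and exported by the SLC16A transporters, or enters the mitochondrion and is oxidised by the pyruvate dehydrogenase complex, which the PDK kinases switch off. Pancreatic adenocarcinoma is known for high glucose use and lactate release, and many of these genes are textbook targets of the hypoxia factor HIF-1 and of MYC.

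The libraries held between 36144330 and 45068660 counts, with a count above 0 for 14999 to 15220 genes. HMOX1, the targeted gene, had 328 and 378 counts in the control libraries, 102 and 112 with HMOX1si1, and 55 and 53 with HMOX1si2. The 6 epithelial markers (KRT7, KRT8, KRT18, KRT19, EPCAM and CDH1) summed to between 12593 and 14284 CPM (each count relative to the TMM-scaled library size) in siControl, between 8717 and 9064 with HMOX1si1, and between 12306 and 13037 with HMOX1si2. The lower sum with HMOX1si1 came from the keratins KRT8, KRT18 and KRT19. KRT7 was also lower, at 24.3 and 22.9 CPM against 27.1 and 31.3 in siControl. EPCAM changed little, at 651 and 650 CPM against 663 and 686. CDH1 was higher, at 111 and 98.5 CPM against 91.0 and 74.9. The part of the lower sum in the results for HMOX1si1 was not tested. Of markers of other cell types, the 6 acinar and endocrine ones reached at most 3.58 CPM in sum, with CPA1 and INS at 0, and the 4 endothelial ones at most 1.71. The 6 fibroblast markers summed to 119 to 125 CPM in siControl, 91.2 to 95.4 with HMOX1si1 and 79.0 to 86.96 with HMOX1si2, nearly all of it LUM, and the 5 blood cell markers to 38.9 to 53.4, 38.3 to 39.2 and 23.2 to 26.7, nearly all of it LYZ, with CD3E and HBB at 0.

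A first question was which steps of the pathway differed after HMOX1 knockdown. On average over both siRNAs, 4 members passed the threshold (edgeR's quasi-likelihood test, Benjamini-Hochberg adjusted p under 0.05 over all 13769 genes tested): the transporter gene SLC2A6 and the glycolytic enzyme gene PGK1 fell, and PFKL, a phosphofructokinase, and PFKFB3, which makes its activator, rose. These are 11.4% of the 35 tested members, against 10.1% of all genes tested, so the members were called about as often as genes in general. With HMOX1si1 the members that passed were SLC2A6 and ALDOC, an aldolase, both lower (5.71%, against 10.0% of all genes). With HMOX1si2 they were SLC2A6, lower, and PFKL and PFKFB3, higher (8.57%, against 5.73%). SLC2A6 and PFKFB3 also differed between the siRNAs (5.71%, against 3.62%). DESeq2 called in addition LDHA, SLC16A3 and PDK4 on average, PFKL, PFKFB3, PGK1 and PDK4 with HMOX1si1, TPI1, PGK1 and SLC16A3 with HMOX1si2, and ALDOC, SLC16A1 and PDK2 between the siRNAs. It called more genes in general too. In these contrasts, in the same order, it called 7, 6, 6 and 5 of the 35 members. Of all 13769 genes it called 2636, 2639, 1890 and 1411. The calls on average did not hold without siControl replicate 1 or without replicate 2, where 1 control library is left. This was so for genes in general as for the members. With any 1 library left out, the log2 fold change on average ran from −1.48 to −1.25 for SLC2A6 and from 0.71 to 0.89 for PFKFB3. It ran from 0.41 to 0.47 for PFKL and from −0.74 to −0.53 for PGK1.

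Most members that did not pass lay a little below the controls. In 16 of the 35 members all 4 knockdown libraries were below both control libraries (45.7%, against 18.2% of all genes tested), and in 3, PFKL, PFKFB3 and PDK4, all 4 were above (8.57%, against 18.7%). The log2 fold change on average was below 0 for 30 of the 35 members, with a median of −0.16 beside −0.0045 over all genes tested. With library totals in place of TMM as the scaling, it was below 0 for 27. The median was −0.16 with HMOX1si1 and −0.25 with HMOX1si2, beside −0.0013 and 0.0024 over all genes. Together the members took 1.26% and 1.34% of all counts in the siControl libraries, 1.14% and 1.14% with HMOX1si1, and 1.14% and 1.18% with HMOX1si2. GAPDH alone took between 0.344% and 0.431% of a library. The libraries are of bulk RNA, so fewer cells that use a gene and less of its RNA per cell cannot be told apart.

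**Figure D1:**
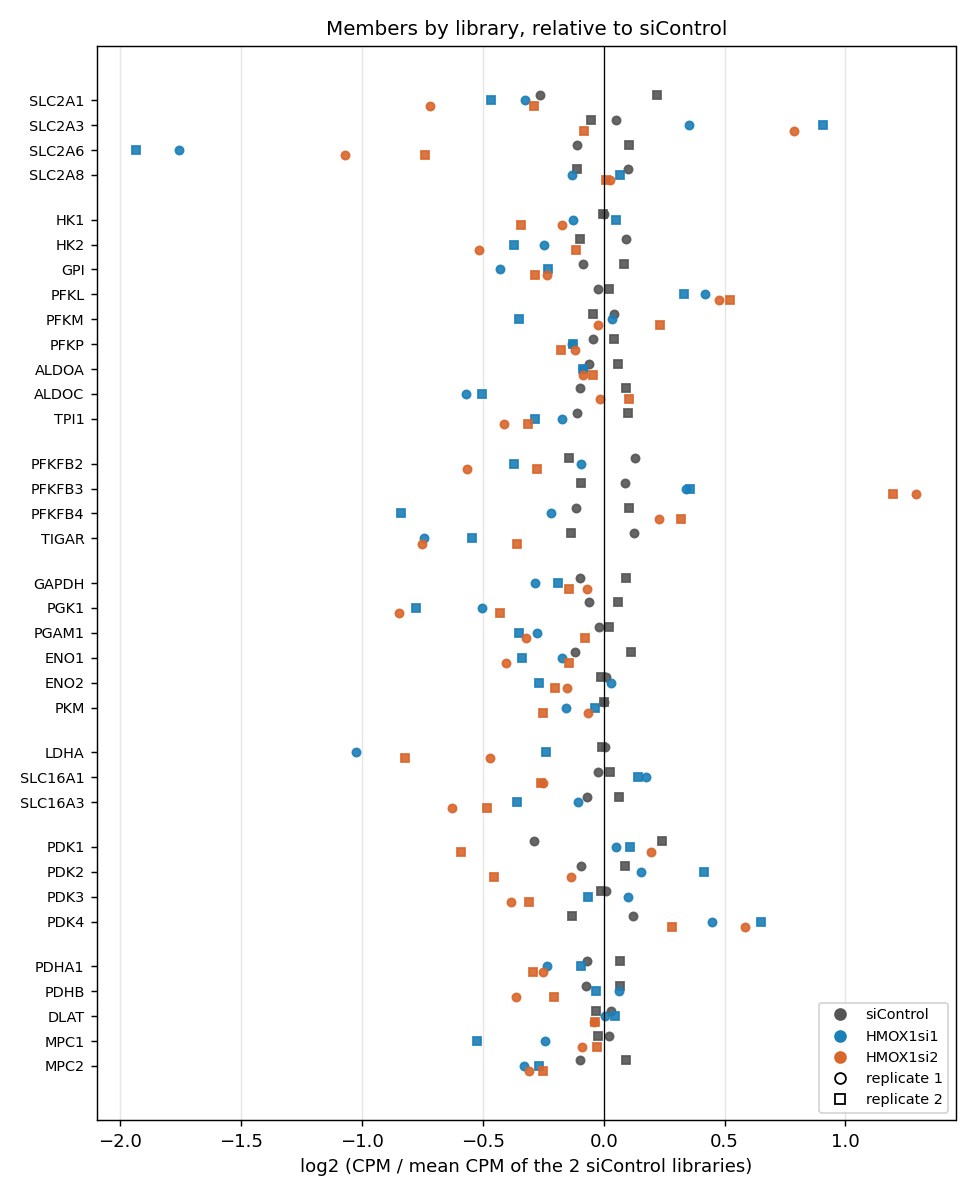
Each of the 35 tested members (rows, grouped by role from transporters at the top to pyruvate entry at the bottom) in each of the 6 libraries. The horizontal axis is the log2 ratio of a library's CPM to the mean CPM of the 2 siControl libraries; colour gives the group and marker shape the replicate number. SLC2A6 stands farthest to the left and PFKFB3 with HMOX1si2 farthest to the right, and for 16 members all 4 knockdown points lie left of both control points.

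The sequences just upstream of the genes that passed on average are shown because many promoters of glycolytic genes are known to hold short binding words of HIF-1 and of MYC. They come from RefSeq (GRCh38.p14), read 5′ to 3′ on the gene's strand and ending at or before the annotated start, with any bases that touch an annotated exon left out. Capitals mark ACGTG or GCGTG, the core words of a hypoxia response element, or their complements CACGT and CACGC. The SLC2A6 window is chr9:133479138-133479349 (minus strand), that of PFKL chr21:44299803-44300050 (plus strand) and that of PGK1 chrX:78103998-78104173 (plus strand). For PFKFB3, which has 2 annotated starts in the table, the upstream window is chr10:6144671-6144920 and the downstream one chr10:6202694-6202865 (both plus strand).
SLC2A6: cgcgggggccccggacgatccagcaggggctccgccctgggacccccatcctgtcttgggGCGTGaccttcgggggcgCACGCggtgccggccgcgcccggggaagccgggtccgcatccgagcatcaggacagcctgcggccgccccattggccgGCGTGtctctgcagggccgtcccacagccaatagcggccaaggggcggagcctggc
PFKL: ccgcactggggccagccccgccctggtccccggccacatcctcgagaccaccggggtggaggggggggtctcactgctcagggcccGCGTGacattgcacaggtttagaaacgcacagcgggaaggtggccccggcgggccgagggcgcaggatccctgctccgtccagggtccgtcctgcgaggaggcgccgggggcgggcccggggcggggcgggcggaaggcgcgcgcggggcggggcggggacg
PGK1: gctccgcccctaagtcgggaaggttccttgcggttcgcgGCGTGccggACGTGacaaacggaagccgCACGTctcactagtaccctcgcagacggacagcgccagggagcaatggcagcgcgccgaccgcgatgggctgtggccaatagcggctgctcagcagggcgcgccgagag
PFKFB3 upstream start: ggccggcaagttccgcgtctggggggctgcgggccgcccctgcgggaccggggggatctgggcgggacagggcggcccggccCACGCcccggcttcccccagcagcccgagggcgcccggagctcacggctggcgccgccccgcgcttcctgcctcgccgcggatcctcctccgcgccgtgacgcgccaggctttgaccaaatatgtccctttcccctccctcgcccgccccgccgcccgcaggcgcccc
PFKFB3 downstream start: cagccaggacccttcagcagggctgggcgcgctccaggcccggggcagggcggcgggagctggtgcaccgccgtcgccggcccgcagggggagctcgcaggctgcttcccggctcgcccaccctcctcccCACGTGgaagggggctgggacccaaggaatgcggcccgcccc
The PGK1 window holds ACGTG 2 times and GCGTG 1 time, whereas the SLC2A6 window holds GCGTG 3 times and the PFKL window holds it 1 time. The downstream PFKFB3 window holds CACGTG, which reads as ACGTG on both strands and is also the E-box bound by MYC and by the glucose-sensing factors of the MLXIP family.

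The same search was run over the members as a whole. Of the 36 members, 33 were matched to a promoter by symbol, with 63 promoters in all, and SLC2A3, PFKFB2 and SLC16A1 were not matched. Some promoters of the same gene overlap, as in HK1, PFKM and MPC2, so the same bases can be counted more than once. In the 250 bases before the start, searched on both strands, ACGTG was present in 22 of the 63 promoters (34.9%), against 22.0% of the promoters of genes tested and 18.5% of all promoters in the table. GCGTG was present in 21 (33.3%, against 42.5% and 32.2%), and at least 1 of both words in 34 (54.0%, against 54.1% and 43.2%). CACGTG, every instance of which also holds ACGTG, was in 8 (12.7%, against 8.13% and 6.34%). LDHA, chosen after its count was seen, had the word ACGTG 5 times in 1 promoter window, counted over both strands. That window held CACGTG 2 times, and each of these counts once per strand. The windows of SLC2A1, PDK4 and PKM held neither ACGTG nor GCGTG. A match of letters is a description of the sequence and not a measurement of binding.

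Of the hexose transporters, SLC2A6 fell with each siRNA, and the other 3 did not pass. SLC2A6 (GLUT6, ENSG00000160326, chromosome 9, minus strand, 133471095 to 133479137 in GENCODE 29 on GRCh38) encodes a transporter that is found mainly on internal membranes. It stood at 100 and 117 CPM in the siControl libraries, 32.1 and 28.4 with HMOX1si1, and 51.7 and 64.9 with HMOX1si2. The 3 groups do not overlap, and the HMOX1si1 libraries are the lowest. The level was 27.9% of control with HMOX1si1 (−1.84 on the log2 scale, SE 0.15, edgeR adjusted p = 0.00598) and 53.7% with HMOX1si2 (−0.90, SE 0.15, edgeR adjusted p = 0.0332). The latter call was lost with the replicate numbers as a block (edgeR adjusted p = 0.0709) and with only the 2 groups compared (0.0555). HMOX1si2 left 0.945 more on the log2 scale than HMOX1si1 (SE 0.15, edgeR adjusted p = 0.0329), while the counts of HMOX1 were lower with HMOX1si2. With HMOX1si2 the call was lost without any 1 library other than HMOX1si2 replicate 2, the adjusted p then lying between 0.0578 and 0.167, and with HMOX1si1 it was lost without siControl replicate 2 (edgeR adjusted p = 0.0619). That contrast of the siRNAs was lost without any 1 library other than HMOX1si2 replicate 1 (edgeR adjusted p between 0.0769 and 0.172), and the call on average without siControl replicate 1 or 2 (0.0612 and 0.0976).

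SLC2A1 (GLUT1), the main transporter of basal glucose uptake, ranged from 127 to 177 CPM in siControl, 110 to 121 with HMOX1si1, and 92.3 to 124 with HMOX1si2. All 4 knockdown libraries lay below both controls, but the lower control was close to the highest of them, and the change on average did not pass (log2 fold change −0.44, SE 0.18, edgeR adjusted p = 0.150). SLC2A8, an intracellular transporter, lay between 3.55 and 4.17 CPM in all libraries. SLC2A3, the high-affinity GLUT3, was near the limit of detection with 7 to 14 counts per library, and its nearest relative SLC2A14 is almost identical in sequence, which makes its counts uncertain. Per kilobase of exon, SLC2A1 and SLC2A6 were nearly level in siControl, at 50.1% and 48.3% of the summed transcripts of the 4 genes (SD 3.45 and 3.02, n = 2). SLC2A6 made up 25.1% with HMOX1si1 (SD 0.481, n = 2) and 40.8% with HMOX1si2 (SD 0.932, n = 2), and SLC2A1 71.9% and 56.6%. With the length of the principal transcript in place of all exons, SLC2A6 was the larger in siControl, at 50.04% against 47.8% for SLC2A1, and its share was again lower with each siRNA.

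In upper glycolysis, PFKL rose on average and with HMOX1si2, ALDOC fell with HMOX1si1, and the other 7 enzymes did not pass by edgeR. DESeq2 also called TPI1 with HMOX1si2 (−0.36 on the log2 scale, DESeq2 adjusted p = 0.0412). PFKL, the liver-type subunit of phosphofructokinase (ENSG00000141959, plus strand of chromosome 21 from 44300051 to 44327376), had 103 and 106 CPM in siControl, 139 and 131 with HMOX1si1, and 145 and 150 with HMOX1si2. All 4 knockdown libraries were above both controls. Its log2 fold change was 0.44 on average (SE 0.08, edgeR adjusted p = 0.0275), 0.50 with HMOX1si2 (SE 0.09, edgeR adjusted p = 0.0368) and 0.37 with HMOX1si1, where it just missed the threshold (SE 0.09, edgeR adjusted p = 0.05002). The call on average was lost without any 1 library other than HMOX1si2 replicate 2, with edgeR adjusted p between 0.0542 and 0.146. With HMOX1si2 it was lost in all 6 refits that leave out 1 library (0.0840 to 0.154).

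The other phosphofructokinase subunits did not pass. PFKP, the platelet type, lay at 462 and 490 CPM in siControl and between 421 and 439 in the knockdown libraries (average log2 fold change −0.14, edgeR adjusted p = 0.260). PFKM, the muscle type, ranged from 83.7 to 125 CPM over the 6 libraries, with controls and knockdown libraries overlapping; it shares 628 bases of exon with SENP1. Per kilobase of exon PFKP was the main subunit, at 78.9% of the summed transcripts in siControl (SD 0.917, n = 2), 76.1% with HMOX1si1 and 73.4% with HMOX1si2. PFKL made up 9.37% (SD 0.0580, n = 2), 12.8% and 13.6%. In siControl PFKM was ahead of it, at 11.7%. By principal transcript length PFKL made up 14.4%, 19.3% and 20.4%, and in siControl it was ahead of PFKM, at 13.3%.

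ALDOC, the brain-type aldolase (ENSG00000109107, minus strand of chromosome 17 from 28573115 to 28577264), had 22.2 and 25.4 CPM in siControl, 16.1 and 16.8 with HMOX1si1, and 23.6 and 25.6 with HMOX1si2. The HMOX1si1 libraries were the lowest, and those of HMOX1si2 overlapped the controls. Its log2 change was −0.54 with HMOX1si1 (SE 0.12, edgeR adjusted p = 0.0457) and 0.04 with HMOX1si2, and the difference between the siRNAs did not pass (0.58, SE 0.12, edgeR adjusted p = 0.0600). The call was lost in all 6 refits that leave out 1 library (edgeR adjusted p between 0.0510 and 0.197), and also when libraries were scaled by their totals (0.0529). ALDOA, the common aldolase and the most abundant enzyme of this group per length, stood at 843 and 918 CPM in siControl and between 830 and 854 in the knockdown libraries, and made up 96.2% to 97.4% of aldolase transcripts per kilobase of exon in each group.

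The remaining upper enzymes were HK1 and HK2, the hexokinases that trap glucose, GPI, which turns glucose phosphate into fructose phosphate, and TPI1, which interconverts the triose phosphates. Their log2 fold changes on average ran from −0.30 for HK2 to −0.14 for HK1, with edgeR adjusted p from 0.0978 for TPI1 to 0.337 for HK1. HK2, GPI and TPI1 were below both controls in all 4 knockdown libraries. HK2, the inducible hexokinase of many tumours, had 67.8 and 59.5 CPM in siControl, 53.6 and 49.2 with HMOX1si1, and 44.6 and 58.8 with HMOX1si2, so the nearest knockdown library was just under the lower control. HK1 and HK2 were level per kilobase of exon in siControl, at 50.1% and 49.9%, and by principal transcript length HK1 was ahead at 62.5%.

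**Figure D2:**
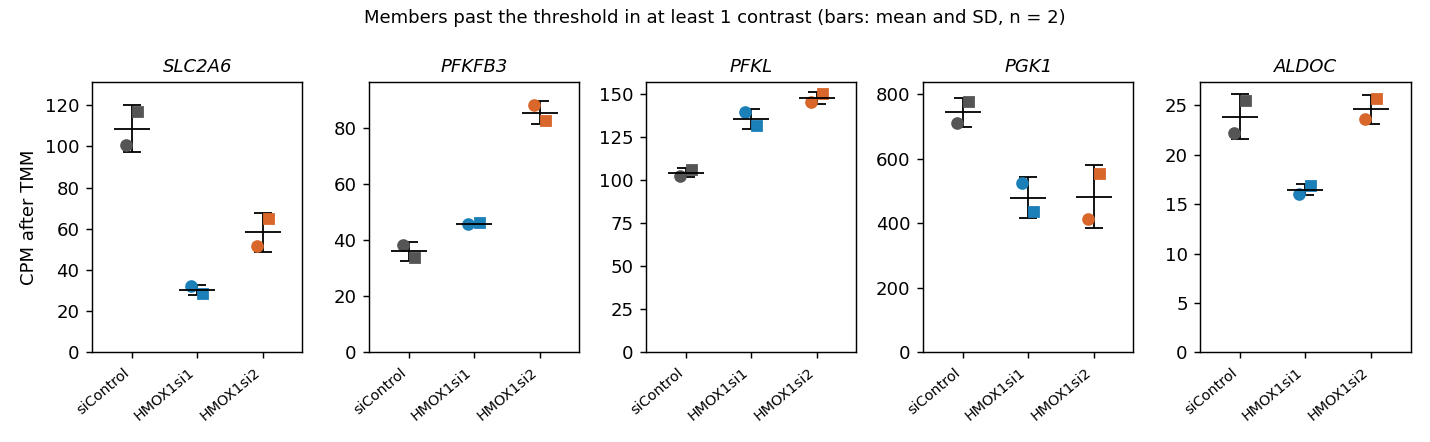
CPM after TMM scaling in each library for the 5 members that passed the threshold in at least 1 comparison. Circles are replicate 1 and squares replicate 2, horizontal marks are group means and error bars SDs (n = 2), and each vertical axis starts at 0. SLC2A6 is lowest with HMOX1si1, PFKFB3 is highest with HMOX1si2, and the ALDOC libraries of HMOX1si1 lie below all others.

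Among the regulators of fructose bisphosphate, PFKFB3 rose and the other 3 did not pass. PFKFB3, the inducible enzyme that makes fructose 2,6-bisphosphate with little activity in reverse (ENSG00000170525, plus strand of chromosome 10 from 6144934 to 6254644), had 38.2 and 33.7 CPM in siControl, 45.6 and 46.1 with HMOX1si1, and 88.1 and 82.4 with HMOX1si2. The groups do not overlap, and the HMOX1si2 libraries are the highest. The log2 fold change was 1.25 with HMOX1si2 (SE 0.10, edgeR adjusted p = 0.0112), 0.35 with HMOX1si1, short of the threshold (SE 0.10, edgeR adjusted p = 0.0821), and 0.80 on average (SE 0.09, edgeR adjusted p = 0.0118). The siRNAs differed by 0.90 (SE 0.10, edgeR adjusted p = 0.0152). Leaving out siControl replicate 1 or 2 ended the call on average (edgeR adjusted p = 0.0651 and 0.107) and with HMOX1si2 (0.0779 and 0.0960), and the difference did not pass without either HMOX1si1 library (0.104 and 0.102) or without HMOX1si2 replicate 1 (0.0540).

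PFKFB2, the form known from heart, was the most abundant of the 3 PFKFB genes in siControl per kilobase of exon. It had 127 and 105 CPM in siControl, 109 and 89.9 with HMOX1si1, and 78.7 and 96.1 with HMOX1si2, and did not pass, at −0.32 on the log2 scale over both siRNAs (SE 0.14, edgeR adjusted p = 0.175). PFKFB3 made up 32.5% of PFKFB transcripts per kilobase in siControl (SD 0.576, n = 2), 42.2% with HMOX1si1 (SD 3.76, n = 2) and 59.4% with HMOX1si2 (SD 4.31, n = 2), where it stood above PFKFB2, whose share was 62.9%, 54.6% and 36.4% in the same order. The order was the same by principal transcript length. PFKFB4 had between 2.83 and 6.30 CPM and stood below both controls with HMOX1si1 and above both with HMOX1si2; the difference of 0.77 between the siRNAs did not pass (SE 0.23, edgeR adjusted p = 0.131). TIGAR, a phosphatase induced by p53 that lowers fructose 2,6-bisphosphate, had 4.70 and 3.92 CPM in siControl and between 2.56 and 3.36 in the knockdown libraries, all below both controls (average log2 fold change −0.59, SE 0.18, edgeR adjusted p = 0.0869). PFKFB2 shares 315 bases of exon with YOD1 and PFKFB4 289 with UCN2.

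**Figure D3:**
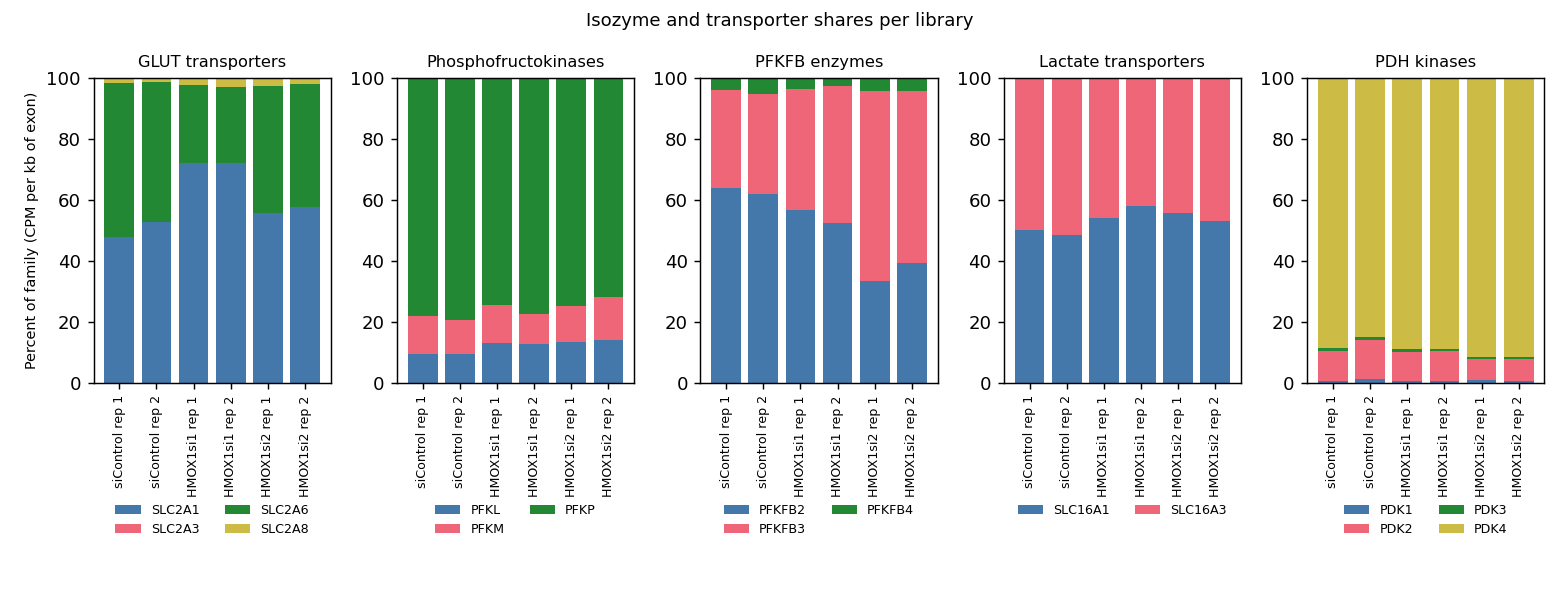
Share of each gene in the summed transcripts of its family, in percent of CPM per kilobase of exon, for each of the 6 libraries. Bars are single libraries and add up to 100 within a family. SLC2A6 shrinks with HMOX1si1 to 25.1% on average, and PFKFB3 overtakes PFKFB2 with HMOX1si2; PFKP and PDK4 are the main form of their family in every library.

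In lower glycolysis, PGK1 fell on average, and the other 5 enzymes did not pass, with log2 fold changes below 0 on average. PGK1, the phosphoglycerate kinase at the earliest ATP-yielding step of glycolysis (ENSG00000102144, plus strand of chromosome X from 77910739 to 78129296), had 712 and 775 CPM in siControl, 524 and 434 with HMOX1si1, and 414 and 552 with HMOX1si2. All 4 knockdown libraries were below both controls, and the siRNAs overlapped each other. The level was 64.7% of control on average (log2 fold change −0.63, SE 0.14, edgeR adjusted p = 0.0457), with −0.63 by HMOX1si1 (edgeR adjusted p = 0.0651) and −0.62 by HMOX1si2 (0.0877), each short of the threshold. The call was lost with library totals as the scaling (edgeR adjusted p = 0.0663) and without any 1 library other than HMOX1si2 replicate 2 (0.0656 to 0.249). PGK1 shares 97 bases of exon with ATP7A.

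GAPDH, the dehydrogenase that follows TPI1, was the most abundant member per length, at 1376 CPM per kilobase of exon in siControl, against 266 for ENO1, 231 for PKM and 225 for ALDOA; by principal transcript length PKM, at 727, was ahead of ENO1, at 597. It had 3831 and 4373 CPM in siControl, 3374 and 3603 with HMOX1si1, and 3906 and 3718 with HMOX1si2, so the HMOX1si2 libraries overlapped the controls. ENO1, the main enolase, had 1289 and 1513 CPM in siControl and between 1058 and 1267 in the knockdown libraries. PKM, pyruvate kinase, had 1976 in both siControl libraries and between 1660 and 1925 in the others. PGAM1, a phosphoglycerate mutase, was below both controls in all 4 knockdown libraries, and ENO2, the neuronal enolase, made up 0.815% of enolase transcripts per kilobase in siControl. The log2 fold changes on average of these 5 ran from −0.26 to −0.13, with edgeR adjusted p from 0.135 to 0.475. GENCODE 29 names 62 pseudogenes of GAPDH, 13 of PGAM1 and 6 of LDHA, none of them in the count table, and how reads shared with them were counted is not given in the sources used here.

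Of the 3 tested genes of the lactate step edgeR called 0 on average, with 2 at an unadjusted p under 0.05, and DESeq2 called LDHA and SLC16A3. Of all 13769 genes tested, 4316 had an unadjusted p under 0.05 on average, and DESeq2 called 2636. LDHA, the subunit that favours pyruvate to lactate, had 769 and 763 CPM in siControl, 376 and 650 with HMOX1si1, and 554 and 433 with HMOX1si2. All 4 knockdown libraries were below both controls, but the 2 HMOX1si1 libraries were far apart (average log2 fold change −0.61, SE 0.22, edgeR adjusted p = 0.125). LDHB was listed at 0, and the files do not tell whether that reflects the cells or the counting, so no share of the 2 subunits is given. SLC16A3 (MCT4), the lactate exporter of glycolytic cells, had 138 and 152 CPM in siControl, 135 and 113 with HMOX1si1, and 93.8 and 104 with HMOX1si2, an average log2 fold change of −0.39 that did not pass (SE 0.11, edgeR adjusted p = 0.0681). SLC16A1 (MCT1), which carries lactate both ways, had 81.5 and 84.4, 93.6 and 91.5, and 69.7 and 69.4 CPM in the same order, above both controls with HMOX1si1 and below both with HMOX1si2. The siRNAs differed by −0.41 for SLC16A1, which did not pass (SE 0.08, edgeR adjusted p = 0.0586). Per kilobase of exon SLC16A1 and SLC16A3 were at 49.2% and 50.8% of their sum in siControl, 55.9% and 44.1% with HMOX1si1, and 54.4% and 45.6% with HMOX1si2; by principal transcript length SLC16A3 was the larger in all 3 groups. SLC16A3 shares 482 bases of exon with CSNK1D.

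**Figure D4:**
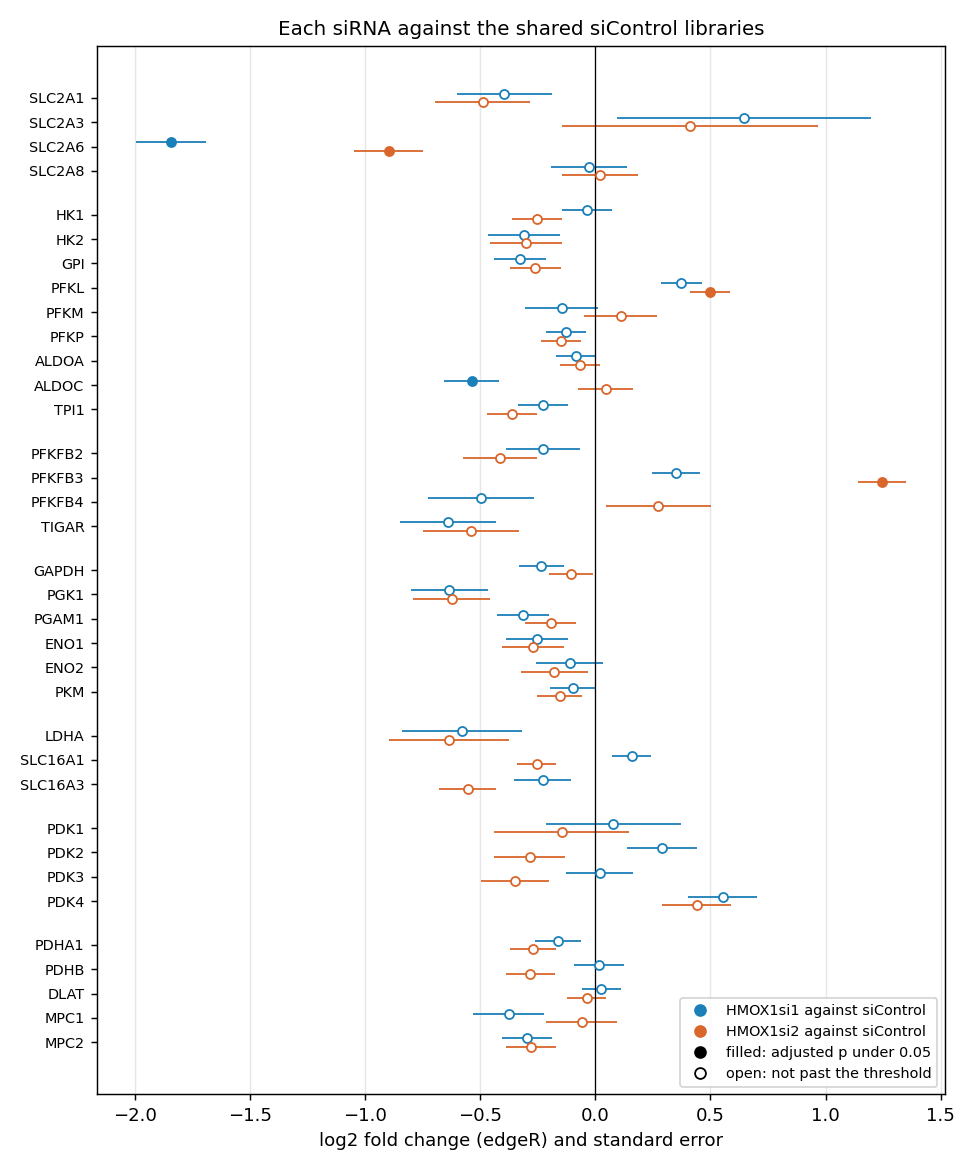
Log2 fold change of each tested member with HMOX1si1 and with HMOX1si2, each against the same 2 siControl libraries, with standard errors from edgeR. Filled points passed an adjusted p of 0.05 and open points did not. SLC2A6 is filled for both siRNAs, ALDOC for HMOX1si1 only, and PFKL and PFKFB3 for HMOX1si2 only; the difference between the siRNAs itself did not pass for PFKL (0.12, edgeR adjusted p = 0.486) or ALDOC (0.58, edgeR adjusted p = 0.0600).

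At the pyruvate dehydrogenase kinases, which phosphorylate the complex and shut it, edgeR called 0 of 4 on average, with 1 at an unadjusted p under 0.05, and DESeq2 called that 1, PDK4. The same measures gave 4316 and 2636 of all 13769 genes tested. PDK4, the form induced by fasting and fatty acids, had 397 and 334 CPM in siControl, 498 and 574 with HMOX1si1, and 547 and 445 with HMOX1si2. All 4 knockdown libraries were above both controls, and the change on average did not pass (log2 fold change 0.50, SE 0.13, edgeR adjusted p = 0.0663). It was the main kinase per kilobase of exon, at 86.7% of PDK transcripts in siControl (SD 2.46, n = 2), 89.0% with HMOX1si1 and 91.6% with HMOX1si2. PDK2, the broadly expressed form, had 53.5 and 60.7 CPM in siControl, 63.5 and 76.0 with HMOX1si1, and 52.0 and 41.7 with HMOX1si2. It was thus above both controls with HMOX1si1 and below both with HMOX1si2, and the difference between the siRNAs did not pass (−0.57, SE 0.15, edgeR adjusted p = 0.102). PDK2 shares 2113 bases of exon with SAMD14. PDK1, a textbook target of HIF-1, ranged from 8.55 to 15.2 CPM with all groups overlapping, and PDK3 from 3.55 to 4.96.

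For pyruvate entry, edgeR also called 0 of 5 members on average, as did DESeq2, with 2 at an unadjusted p under 0.05 and log2 fold changes from −0.29 for MPC2 to −0.01 for DLAT. An unadjusted p under 0.05 on average was found for 4316 of all 13769 genes tested. MPC1 and MPC2, the subunits of the mitochondrial pyruvate carrier, were below both controls in all 4 knockdown libraries. For MPC1 the gap was very small, at 5.91 and 5.72 CPM in siControl, 4.91 and 4.05 with HMOX1si1, and 5.46 and 5.70 with HMOX1si2. MPC2 had 31.9 and 36.4 CPM in siControl and between 27.1 and 28.6 in the knockdown libraries (edgeR adjusted p on average = 0.0994). PDHA1, the E1 alpha subunit of the complex that the kinases phosphorylate, had 73.8 and 81.2 CPM in siControl and between 63.3 and 72.7 in the others, and shares 956 bases of exon with MAP3K15. PDHB, the E1 beta subunit, lay between 37.9 and 51.0 CPM. DLAT, the E2 subunit, lay between 85.0 and 90.2 CPM in all 6 libraries.

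The wider pathway was described with 118 other genes in 11 lists, of which 117 were in the count table and 96 were tested. These lists, too, were chosen with earlier results of these data known. On average 6 of the 96 rose and 6 fell, with a median log2 fold change of −0.08, beside 10.1% called and a median of −0.0045 over all genes tested. edgeR called 0 on average among 9 tested other hexose transporters and 9 other glycolysis enzymes (2 each at an unadjusted p under 0.05, and 0 by DESeq2) and among 5 other lactate genes (0 by either measure). It also called 0 of 9 hexosamine genes (4 at an unadjusted p under 0.05, 3 by DESeq2) and 0 of 10 genes of the NADH shuttles (5 and 3). Over all 13769 genes tested, 4316 had an unadjusted p under 0.05 on average, and DESeq2 called 2636. Of 8 other pyruvate dehydrogenase genes 1 rose, of 6 gluconeogenesis genes 1 fell, of 11 glycogen genes 2 fell, of 6 polyol and fructose genes 1 fell, and of 13 regulators of glucose uptake 4 rose and 1 fell.

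PDP1, the phosphatase that undoes the work of the PDK kinases, rose with each siRNA. It had 18.3 and 14.6 CPM in siControl, 43.0 and 44.2 with HMOX1si1, and 29.5 and 29.5 with HMOX1si2, so the groups do not overlap. Its log2 change was 1.40 with HMOX1si1 (SE 0.13, edgeR adjusted p = 0.00673), 0.84 with HMOX1si2 (SE 0.13, edgeR adjusted p = 0.0282) and 1.12 on average (SE 0.12, edgeR adjusted p = 0.0103). The difference between the siRNAs did not pass (−0.56, SE 0.13, edgeR adjusted p = 0.0745). With HMOX1si2 the call was lost in all 6 refits that leave out 1 library (0.0580 to 0.128), and with HMOX1si1 without siControl replicate 2 (0.0619) and without HMOX1si1 replicate 2 (0.0517).

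**Figure D5:**
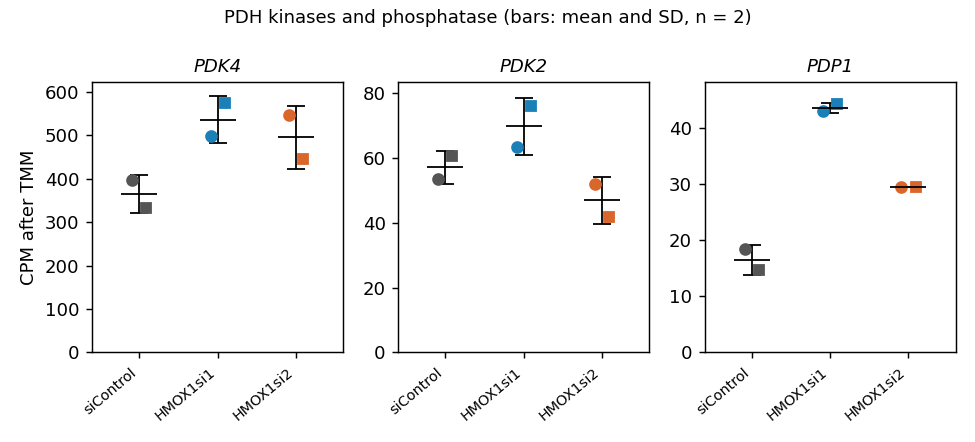
CPM after TMM scaling in each library of PDK4 and PDK2, kinases that shut the pyruvate dehydrogenase complex, and of PDP1, the phosphatase that reopens it. Circles are replicate 1 and squares replicate 2, horizontal marks are means, error bars are SDs (n = 2) and axes start at 0. PDP1 lies above both controls in all 4 knockdown libraries, as PDK4 does with a smaller gap, while PDK2 is above the controls with HMOX1si1 and below them with HMOX1si2.

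Among other sugar transporters SLC5A1 (SGLT1), which takes up glucose with sodium, was the gene called. It had 0.553 and 0.608 CPM in siControl, 0.334 and 0.375 with HMOX1si1, and 2.40 and 2.79 with HMOX1si2. The log2 fold change with HMOX1si2 was 2.15 (SE 0.25, edgeR adjusted p = 0.0196), that with HMOX1si1 was −0.71, short of the threshold (edgeR adjusted p = 0.155), and the siRNAs differed by 2.86 (SE 0.27, edgeR adjusted p = 0.0102). The difference was lost without either HMOX1si1 library (edgeR adjusted p = 0.0707 and 0.0795), and the call with HMOX1si2 without either control or either HMOX1si2 library (0.0537 to 0.126).

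In the pentose phosphate pathway, which makes NADPH and ribose from glucose phosphate, H6PD and PGD were among the genes called. H6PD, which works in the endoplasmic reticulum, rose on average (0.48 on the log2 scale, SE 0.09, edgeR adjusted p = 0.0302) and with HMOX1si2 (0.63, edgeR adjusted p = 0.0305). The H6PD call with HMOX1si2 was lost in all 6 refits that leave out 1 library, and that on average in 5 of them. PGD, an oxidative enzyme of the cytosol, fell with HMOX1si1 (−0.39, edgeR adjusted p = 0.0493) and was at −0.06 with HMOX1si2. The PGD call was lost in all 6 refits that leave out 1 library (edgeR adjusted p between 0.0588 and 0.208), with RLE scaling (0.0514), without the low-count filter (0.0554) and with only the 2 groups compared (0.0575). The epithelial marker sum, carried by KRT8, KRT18 and KRT19, was lowest with HMOX1si1, as given above. Its part in the calls with that siRNA was not tested.

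Of the gluconeogenesis, glycogen and fructose lists, the genes called on average all fell. SLC37A4, the glucose 6-phosphate carrier of the endoplasmic reticulum, fell on average (log2 fold change −0.48, SE 0.11, edgeR adjusted p = 0.0473). So did PGM1, which links glycogen to glycolysis (−0.36, SE 0.08, edgeR adjusted p = 0.0406), and the glycerate kinase gene GLYCTK (−0.80, SE 0.16, edgeR adjusted p = 0.0373). By siRNA, PGM1 was at −0.17 with HMOX1si1, short of the threshold (edgeR adjusted p = 0.250), and −0.56 with HMOX1si2 (0.0305). The PGM1 call was lost in all 6 refits that leave out 1 library, and those of SLC37A4 and GLYCTK in 5 each. STBD1, which tethers glycogen for breakdown in lysosomes, went from 9.06 and 10.8 CPM in siControl to 8.73 and 7.55 with HMOX1si1 and 3.60 and 3.82 with HMOX1si2. It fell with HMOX1si2 (−1.42, SE 0.16, edgeR adjusted p = 0.0186) and differed between the siRNAs (−1.13, SE 0.16, edgeR adjusted p = 0.0225). The STBD1 difference was lost in all 6 refits that leave out 1 library (edgeR adjusted p between 0.0540 and 0.115). SLC37A4 shares exons with TRAPPC4, PGM1 with ITGB3BP, GLYCTK with WDR82, and STBD1 with a readthrough model.

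Of the 13 glucose uptake regulators, 5 were called on average, beside 10.1% of all genes tested. The list was chosen with earlier results of these data known. It included TXNIP and ARRDC4, arrestins that restrain GLUT transporters. TXNIP rose with HMOX1si1 (log2 fold change 0.97, edgeR adjusted p = 0.00618) and with HMOX1si2 (0.76, edgeR adjusted p = 0.0195). TXNIP went from 199 and 194 CPM to 389 and 381 with HMOX1si1 and 322 and 343 with HMOX1si2. MLXIP (MondoA), the glucose sensor known to switch both of them on, went from 201 and 191 CPM to 294 and 312, and to 324 and 284 (average log2 fold change 0.63, SE 0.09, edgeR adjusted p = 0.0199). Chosen after their values were seen, PRKAA2, a catalytic subunit of the energy sensor AMPK, rose on average (0.91, SE 0.15, edgeR adjusted p = 0.0230), and MLXIPL (ChREBP), the relative of MLXIP known from liver, fell (−0.84, SE 0.16, edgeR adjusted p = 0.0321). MLXIPL was at −1.18 with HMOX1si1 (edgeR adjusted p = 0.0220) and −0.50 with HMOX1si2, short of the threshold (0.167). With any 1 library left out, the change on average ran from 0.58 to 0.68 for MLXIP, 0.75 to 1.10 for PRKAA2 and −0.97 to −0.73 for MLXIPL. These 3 calls did not hold in most of those refits. ARRDC4 had 1.19 and 1.04 CPM in siControl, 5.65 and 6.55 with HMOX1si1, and 3.18 and 3.25 with HMOX1si2, and was lower with HMOX1si2 than with HMOX1si1 (−0.92, SE 0.17, edgeR adjusted p = 0.0434). This ARRDC4 difference was lost in all 6 refits that leave out 1 library (edgeR adjusted p between 0.0847 and 0.226) and with only the 2 groups compared.

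The 12 calls of other pathway genes on average were lost without either control library, and most were lost without either HMOX1si1 library. Of the 8 calls with HMOX1si1, most or all were lost without either control or either HMOX1si1 library. The 9 calls with HMOX1si2 were lost without either control and without HMOX1si2 replicate 1. Calls over all genes tested also fell sharply in these refits, so the losses are not particular to these genes. The 12 log2 fold changes on average kept their sign with any 1 library left out. They ran from 1.90 to 2.09 for ARRDC4, 0.97 to 1.29 for PDP1 and −0.41 to −0.31 for PGM1. The calls of SLC37A4, PGM1 and GLYCTK on average were also lost with library totals as the scaling (0.0511 to 0.0673).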

How the data were processed

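RNA-seq was done on AsPC-1 cells in 3 groups of 2 libraries, grouped by the labels. The authors deposited 1 table of whole-number counts per Ensembl gene and library, unnormalized as far as the values show. How reads were aligned and counted is not given in the sources used here. Mouse builds (GRCm38, mm10) stand in the submitters' processing notes, while the gene IDs in the deposited counts are human (20224 of 20263 are in GENCODE 29, GRCh38, which gave names, positions and exon lengths). Among counts of 1 to 10, 71.9% were even, against 49.9% of counts over 100, so small counts may not be single reads.

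Counts were scaled by TMM, filtered with filterByExpr (13769 genes kept) and tested in edgeR 4.0.16 (R 4.3.3) with the quasi-likelihood test, all 3 groups sharing 1 estimate of the spread. The contrasts were the average of both siRNAs, each siRNA against siControl, and HMOX1si2 against HMOX1si1. P-values were adjusted by Benjamini-Hochberg over all genes tested, with a threshold of 0.05, and the procedure was tested on simulated data. A standard error is the size of the log2 fold change over the square root of its F statistic. Libraries held 36144330 to 45068660 counts; the limit for a count of 0 covers counting error only.

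The 36 members, the 11 other pathway lists and the markers were chosen with earlier results of these data known. All members are named, and members called in a contrast are given in every library. Of each other list at most 3 called genes are named, by smallest p on average. PRKAA2 and MLXIPL were named beyond this rule, after their values were seen. Levels between genes are CPM per kilobase of exon, or of the longest principal transcript as an added alternative. Alternatives were RLE scaling, library totals, no low-count filter, a replicate block, leaving out each library, only the 2 groups compared, and DESeq2 1.42.0. The replicate numbers were not taken to pair the libraries. A gene of the other pathway lists is counted but not reported here by name.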

Additional observations from a re-analysis of the deposited data

Results flagged for a closer look

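SLC2A6 differed between the 2 siRNAs: its log2 level was 0.945 higher with HMOX1si2 than with HMOX1si1 (edgeR adjusted p = 0.0329), with the libraries at 51.7 and 64.9 CPM against 32.1 and 28.4. PFKFB3 also differed, by 0.895 on the log2 scale (edgeR adjusted p = 0.0152), with 88.1 and 82.4 CPM with HMOX1si2 against 45.6 and 46.1 with HMOX1si1. Each was picked out because the contrast between the siRNAs was tested directly and passed. With the replicate numbers as a block, neither difference passed (edgeR adjusted p = 0.0658 for SLC2A6 and 0.0501 for PFKFB3). With only the 2 groups compared, that of SLC2A6 did not pass (edgeR adjusted p = 0.0752). Both differences also depended on single libraries, as given above.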

How the results depend on the processing

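Replicate numbers were not taken to pair the libraries. The correlation of same-numbered libraries' deviations from their group means was −0.066 (siControl and HMOX1si1), 0.0621 (siControl and HMOX1si2) and −0.35 (both siRNAs). With 2 libraries per group, these values cannot tell whether libraries were paired in another order or shared a batch. With a replicate block, edgeR called 255 genes on average, 481 with HMOX1si1, 45 with HMOX1si2 and 87 between the siRNAs, against 1389, 1381, 789 and 499 without it; of the members it called 2, 1, 1 and 0, against 4, 2, 3 and 2 (9 members differed between the siRNAs at an unadjusted p under 0.05 without the block, and DESeq2 called 5). Over all 13769 genes tested, 2842 differed between the siRNAs at an unadjusted p under 0.05 without a block. With crossed numbers as the block, chosen after seeing the data, the siRNAs differed in 1170 genes and 5 members. DESeq2 called 2636, 2639, 1890 and 1411 genes, and 7, 6, 6 and 5 members. With only the 2 groups compared, HMOX1si2 gave 179 genes and 1 member, and the difference 156 and 1. With library totals as the scaling, HMOX1si1 gave 1 member. The cause of these shifts was not tested.

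Leaving out 1 library gave 0 to 1594 genes and 0 to 5 members on average, 0 to 1492 and 0 to 2 with HMOX1si1, 0 to 362 and 0 to 2 with HMOX1si2, and 19 to 204 and 0 to 1 between the siRNAs. edgeR called 0 genes on average without siControl replicate 1 or 2 (3459 and 2562 at an unadjusted p under 0.05), with HMOX1si1 without siControl replicate 2 (2806), and with HMOX1si2 without replicate 1 or 2 of siControl (2968 and 2409); no other tool was run on these subsets. Over all members, contrasts and alternatives 60 values of 25 members changed sign, 56 of them with 1 library left out, and 0 of them had passed in edgeR. Those below are the changes on average, the differences and single-siRNA values of at least 0.2 on the log2 scale, and those of called members. With library totals the change on average was 0.0103 for SLC2A8, 0.0007 for PFKM and 0.0095 for DLAT, and without the low-count filter −0.0002 for PDK2. With 1 library left out, the change on average ran from −0.1022 to 0.0993 for SLC2A8, −0.1228 to 0.0729 for PFKM, −0.2851 to 0.0281 for PFKFB4, −0.2764 to 0.2595 for PDK1, −0.0907 to 0.0994 for PDK2 and −0.0313 to 0.0203 for DLAT. With HMOX1si2 it ran from −0.0751 to 0.7788 for SLC2A3 and −0.0542 to 0.1488 for ALDOC, and between the siRNAs from −0.7221 to 0.1317 for SLC2A3, −0.2143 to 0.2041 for PGK1 and −0.6705 to 0.1146 for PDK1.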
